A study of Saccharomyces cerevisiae with 83 samples.

Results

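Barcodes of the yeast strain AGY1614 were followed for 10 generations of pooled growth, to ask which extra gene copies fell, which rose, and which came to hold much of the pool. AGY1614 is a haploid of the YPS1009 background, a wild North American lineage of Saccharomyces cerevisiae. It was transformed with a library in which each plasmid carries 1 gene and 1 barcode, and each cell of a pool therefore held an additional copy of 1 gene. The members are the 8 libraries whose labels name AGY1614 in batch 1, of 83 libraries in the series: 4 cultures at generation 10 and the same 4 cultures (A to D) at generation 0. The reference strains are AGY1611, AGY1612 and AGY1613 of the same batch, each with 4 cultures at both generations. The series holds euploid haploids and haploids that carry 1 more copy of chromosome XV, XII, VII or IV, some of them lacking Ssd1, which binds RNA. The sources used here do not pair AGY1614 with a karyotype or an SSD1 state, and none is assigned to it.

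A 1 mL glycerol stock was thawed into 100 mL of synthetic medium without histidine. Every culture of all 4 strains contained nourseothricin at 100 mg/L, which keeps amplified chromosomes, and G418 at 200 mg/L, which keeps the plasmid. Cultures started at an OD600 of 0.05 at 30 °C, were diluted back to that density after 5 generations and were harvested at generation 10. Generation 0 was the remainder of the same stock. Per the series' design text, the 4 cultures of a strain came from 2 transformations of the library. Cultures A and B are treated as 1 transformation pool (AB) and C and D as the other (CD). The labels do not state that assignment, and the changes of A and B resembled each other more than those of either resembled C or D, as given with the comparison of the pools.

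A centromeric plasmid carries a yeast centromere and is therefore kept at a low copy number, so that a barcoded gene on it approximates a gene duplication. In a pooled competition, a barcode falls when the cells that carry it divide more slowly than the rest of the pool and rises when they divide faster. The count of a barcode depends on the number of cells and on the plasmid copies per cell, and these cannot be told apart here.

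Total counts were 686927, 2906636, 1164702 and 457053 in cultures A to D at generation 10 and between 4960257 and 5940800 at generation 0. Among the 4 cultures, log2 CPM (counts per 1000000 counts of the library) had a median standard deviation of 0.47 at generation 10, against 0.09 at generation 0. Within a pool it was 0.19 at generation 10, against 0.05 at generation 0. The scaling factors of the trimmed mean of M-values (TMM) were 0.651 to 0.828 in the AGY1614 generation 10 libraries, against 0.901 to 1.08 in those of the other strains. They were 1.06 to 1.1 at generation 0 of AGY1614. The plasmid without a gene took 0.0234% to 0.04% of counts at generation 10, and 0.0168%, 0.0182%, 0.00149% and 0.0262% in A to D at generation 0. At generation 0 of the other strains that plasmid took 0.0163% to 0.0236% in A and B and 0.00167% to 0.00455% in C and D. The AGY1614 D library was above all of these, and its TMM factor was 1.06, against 1.1 in A to C. At generation 0 the counts of C and D differed more (chi-square per degree of freedom 9.94) than those of A and B (2.62) or A and C (3.26). The resemblance within pools is therefore seen in the changes and at generation 10. Changes of culture D and pool CD use this D library as their start, and why it differs was not tested. All log2 changes are generation 10 over generation 0 and relative to the rest of the pool.

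A small number of barcodes came to hold a larger part of the AGY1614 pools than at generation 0. The 10 most abundant barcodes took 7.46%, 9.96%, 12.6% and 8.24% of counts in cultures A to D at generation 10, a mean of 9.55% ± 2.26 (SD, n = 4). At generation 0 they took 1.32% to 1.37%, a mean of 1.34% ± 0.0255 (SD, n = 4). Every AGY1614 culture at generation 10 was above every generation 0 culture. In the other 3 strains the 10 most abundant barcodes took 1.46% to 1.91% of counts at generation 10 in 12 libraries, and no library of those strains came near the lowest AGY1614 culture. Averaged by pool, the share was 9.55% over the 2 AGY1614 pools and 1.73% over the 6 pools of the other strains, a difference of 7.82 percentage points. A two-sided exact permutation test over pools gave p = 0.0357, the smallest value that its 28 splits can give. It takes the pools of all strains as exchangeable, although the 2 pools of a strain share that strain. With a single strain set against 3, it does not measure the spread between strains, and no conclusion on strains is drawn from it. The number of barcodes that together held 50% of counts was 520, 367, 500 and 620 in cultures A to D at generation 10. It was 824 to 942 in the other strains at generation 10 and 1124 to 1144 in the generation 0 libraries of AGY1614.

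**Figure D1:**
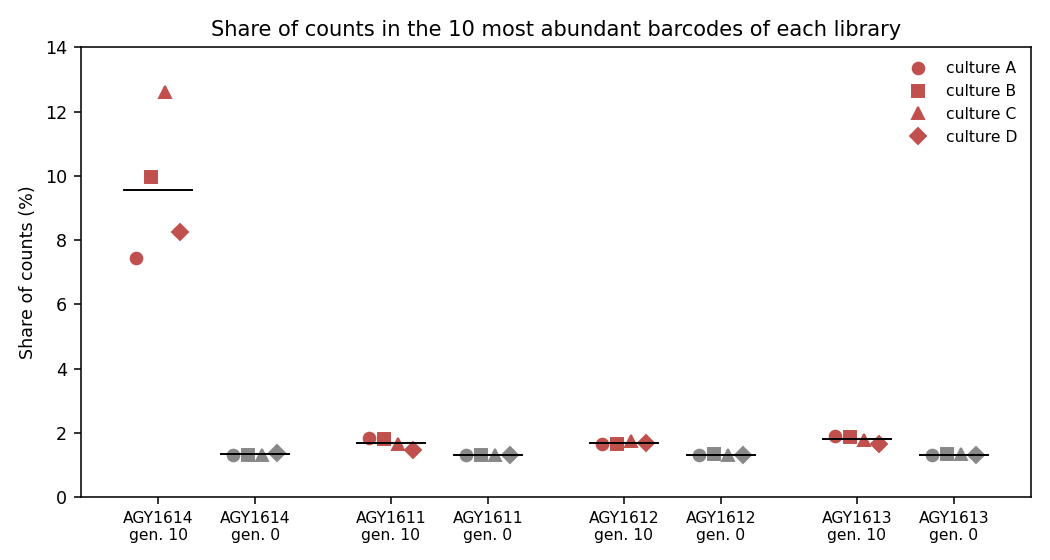
Share of all counts (percent, vertical axis) taken by the 10 most abundant barcodes of each batch 1 library, by strain and generation, with 1 point per culture and a line at the mean. The 4 AGY1614 cultures at generation 10 lie between 7.46% and 12.6%, above all 12 generation 10 cultures of the other strains, which lie between 1.46% and 1.91%.

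At least 0.5% of counts in some generation 10 culture was held by 32 AGY1614 barcodes, and by 0 barcodes in the 12 generation 10 libraries of the other strains. At 0.25% there were 64 such barcodes in AGY1614, against 2 in the other strains. At 1% there were 11, against 0. The largest share of any barcode at generation 0 was 0.189%. The last barcode inside the 0.5% limit was IRC23 at 0.507%, and the first outside was CUB1 at 0.48%. Together the 32 barcodes held 12.3%, 15.9%, 15.6% and 11.3% of counts in cultures A to D at generation 10, and 1.18%, 1.19%, 1.17% and 1.14% at generation 0. Most of them were abundant in a single pool: 19 passed 0.5% in a culture of pool AB, 14 in a culture of pool CD, and ARF2 alone did so in both.

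In pool AB, 17 of the 32 barcodes rose 8-fold or more without doing so in CD. They took 10.3% and 13.8% of counts in cultures A and B at generation 10 and 0.612% and 0.782% in C and D. Their folds in AB ran from 11.5 to 161 with a median of 41.0, and in CD from 0.954 to 4.95. The most abundant was UBA3, which encodes a subunit of the enzyme that activates the ubiquitin-like protein Rub1. UBA3 held 1.21% and 1.78% of counts in cultures A and B at generation 10, but 0.0191% and 0.0433% in C and D. THR1, homoserine kinase of threonine synthesis, held 1.0% and 1.27% in A and B, but 0.0328% and 0.0484% in C and D. DBF20, a kinase of mitotic exit, held 0.658% and 1.06% in A and B, but 0.0458% and 0.0459% in C and D. The others in this group were the cyclophilin gene CPR2, the glutamine permease gene GNP1, the sterol regulator UPC2, the cytochrome b5 gene CYB5, CIN2 (tubulin folding), the polo kinase gene CDC5, the protein kinase A regulator GPB1, AAR2 (U5 snRNP assembly), FCF2 (rRNA processing), RCN2, PRM8, ECM19, IRC23 and YNR014W. These genes belong to different pathways.

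In pool CD, 12 barcodes rose 8-fold or more without doing so in AB, and took 12.9% and 8.85% of counts in cultures C and D at generation 10. The same 12 took 0.822% and 0.812% in A and B. Their folds in CD ran from 12.1 to 158 with a median of 24.2, and in AB from 1.16 to 6.52. AHA1, which encodes an activator of the Hsp90 ATPase, held 1.88% and 0.881% of counts in C and D at generation 10, but 0.0223% and 0.0176% in A and B. RPS28B, a small ribosomal subunit protein gene, held 1.72% and 0.913% in C and D, but 0.0502% and 0.0339% in A and B. NDL1, a dynein pathway gene, held 1.22% and 1.47% in C and D, but 0.0694% and 0.0565% in A and B. Among the others were PAF1 (a transcription elongation factor), RAD6 (a ubiquitin-conjugating enzyme), LSM5 (an RNA-binding Lsm protein), the RNA-binding protein gene WHI4, ZDS1, the mitochondrial NADH kinase gene POS5, FYV6 and YPL119C-A. In culture C, AHA1, RPS28B, PAF1, YPL119C-A, RAD6 and NDL1 each passed 1%.

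ARF1, ARF2 and HYP2 rose 8-fold or more in both pools. ARF1 and ARF2 encode paralogous small GTPases that recruit vesicle coats at the Golgi, and HYP2 encodes translation factor eIF5A. ARF2 held 0.63%, 0.633%, 0.549% and 0.529% of counts in cultures A to D at generation 10, and ARF1 held 0.442%, 0.557%, 0.446% and 0.415%. HYP2 held 0.135% and 0.153% in A and B, but 1.07% and 0.686% in C and D. All 32 had been chosen by their generation 10 shares in AGY1614, so their changes, their differences between pools and their differences from the other strains are given as a description, from which nothing is read about the group.

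**Figure D2:**
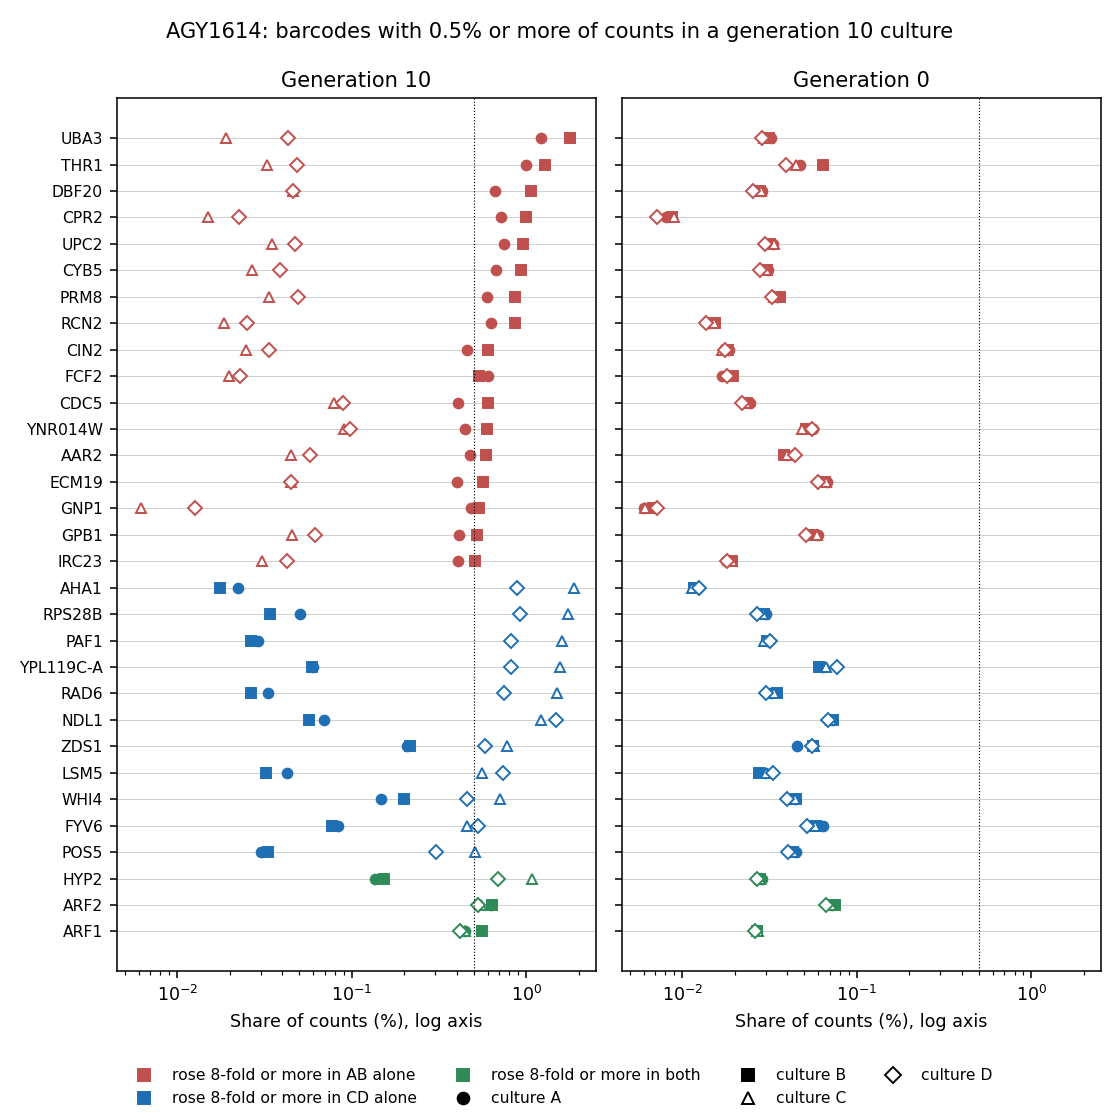
Share of counts (percent, log axis) of 31 of the 32 barcodes with at least 0.5% of counts in any AGY1614 generation 10 culture, at generation 10 (left) and generation 0 (right), by culture. Symbols of A and B are filled and those of C and D are open: at generation 10 the pools do not overlap for any of the barcodes shown except ARF1, while at generation 0 the 4 cultures lie close together.

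Cultures of the same pool had similar changes over the whole library, and cultures of different pools less so. Spearman's rho of the changes over 4430 entries was 0.951 between A and B and 0.897 between C and D, against 0.552 to 0.582 for the pairs that cross pools. Cultures of a pool are taken to share a transformation, and these values describe the libraries, without a test. With the cultures as repeats of a pool, 2481 of 4642 entries (53.4%) differed in change between pools at an adjusted p under 0.05 (edgeR's quasi-likelihood test with Benjamini-Hochberg adjustment). Of these, 1221 changed more positively in AB and 1260 in CD. In the separate pools 3709 entries were called in AB and 3225 in CD. Both pools called 934 entries higher (20.1% of those tested), which is 54.2% of the 1723 higher calls in AB and 62.6% of the 1493 in CD. Both called 1306 lower (28.1%), which is 65.8% of the 1986 lower calls in AB and 75.4% of the 1732 in CD. In opposite directions were 452 calls. At the upper end, 84 entries rose 8-fold or more in AB and 42 in CD, and 9 did so in both (10.7% of the AB and 21.4% of the CD entries). Of the 84, 61 did not reach a 2-fold rise in CD, and of the 42, 24 did not in AB. At the lower end, 477 entries fell 8-fold or more in AB and 278 in CD, and 153 did so in both (32.1% of the AB and 55% of the CD entries).

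Some barcodes rose in 1 pool and fell, or rose far less, in the other. APM2, which encodes a protein related to clathrin adaptor medium chains, had 9.59 and 0.529 CPM in cultures A and B at generation 10 and 783 and 600 CPM in C and D, against 9.06 to 10.5 CPM at generation 0. Its log2 change was -1.87 in AB and 6.04 in CD (adjusted p of the difference 1.35e-09). In AB culture B alone was below generation 0. RKR1, a ubiquitin ligase of ribosome quality control, had 5.75 (A), 0.529 (B), 418 (C) and 275 (D) CPM at generation 10, with 22.7 to 25.9 CPM at generation 0. Its log2 change was -3.77 in AB and 3.78 in CD (adjusted p 6.58e-10), and both cultures of AB were below generation 0. The difference between pools for APM2 was -7.91, but -5.97 without culture B and -10.22 without culture A, and that for RKR1 was -7.54, but -5.77 without culture B and -9.22 without culture A. Neither gene was called when both pools were tested together, with adjusted p values of 0.0792 and 0.309. XRN1, the cytoplasmic 5′-3′ exoribonuclease of mRNA decay, had 2600 and 3360 CPM in A and B at generation 10, but 12.3 and 50.2 CPM in C and D, against 10.1 to 14.4 CPM at generation 0. In CD, culture C lay within the generation 0 range and culture D above it. The difference between pools for XRN1 was 7.04, but 5.71 without culture C and 8.26 without culture D. The change of XRN1 over both pools was called (log2 7.13 ± 1.63 SE, adjusted p 0.00676), but not with each pool as a block (adjusted p 0.0896).

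In other barcodes 1 pool lost all counts and the other did not. EFT1 (translation elongation factor 2), SYO1, MNL2 and the proteasome subunit gene RPN8 had 0 counts in A and B at generation 10 but 5.58 to 44.9 CPM in C and D. All were at 6.95 to 14.5 CPM at generation 0. At such levels, libraries with totals as low as those of A and D at generation 10 hold few reads. A culture at 0 counts there lies near the limit of detection. PIN4, the iron oxidase gene FET3, YKR018C and the zinc regulator ZAP1 had 0 counts in C and D, but 10 to 46 CPM in A and B. These 8 pool differences passed the test, with adjusted p between 1.23e-06 and 0.00199, and no fold is given for them because a pool was at 0. CCR4_2, the second entry of the deadenylase gene CCR4, had counts in culture B alone at generation 10. Its pool difference was called (adjusted p 0.0208) but not with the stock as a block (adjusted p 0.0705), without culture C (0.173), without culture D (0.0657) or without culture B (1).

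**Figure D3:**
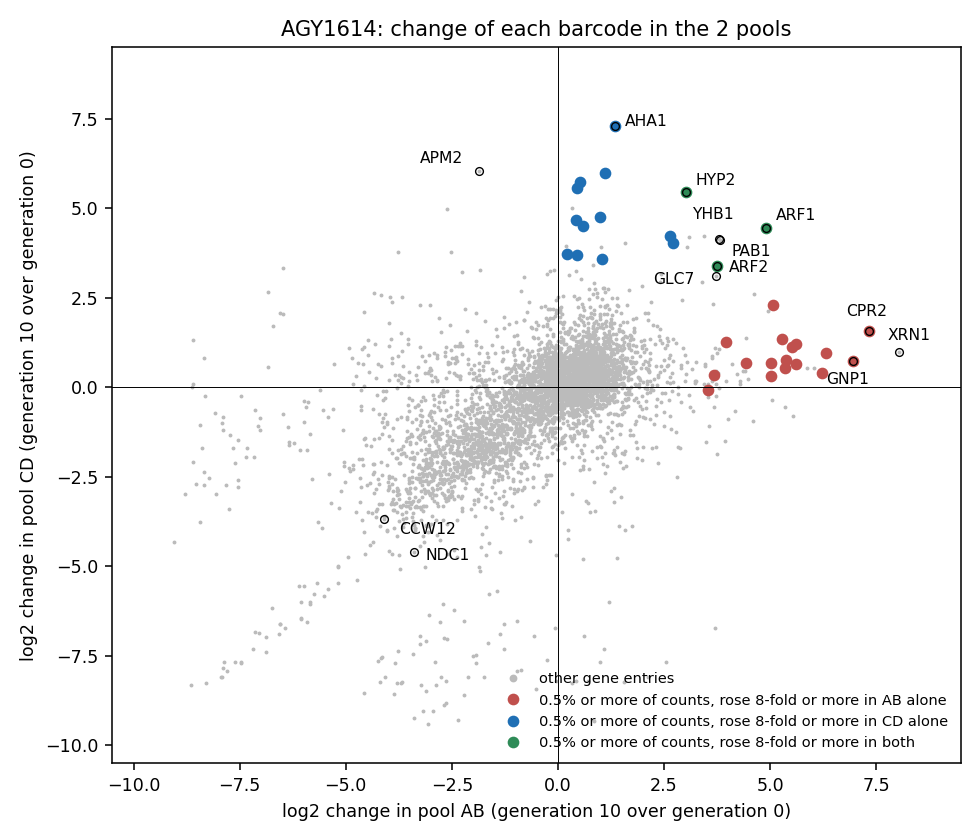
Log2 change (generation 10 over generation 0) in pool CD against that in pool AB for each entry tested in AGY1614, with the 32 most abundant barcodes in colour. Large rises lie along 1 axis or the other with few entries in the upper right corner (ARF1, ARF2, HYP2, YHB1, PAB1 and GLC7 among them). Falls of 8-fold or more were seen in both pools for 153 entries, of 477 in AB and 278 in CD.

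With the 2 pools as the independent units and the spread shared over the 4 strains, 1242 of 4667 entries changed between generations (26.6% at an adjusted p under 0.05, edgeR quasi-likelihood test). Of these, 498 rose (10.7%) and 744 fell (15.9%). Of the 1239 calls that the separate pools could also test, 1165 were called in the same direction in both pools. The same libraries enter both tests, so this agreement is in part built in. Over all 4642 entries tested in the separate pools, 2240 were called in the same direction in both. The count was 822 with the stock as a block (245 higher and 577 lower) and 745 with the AGY1614 libraries alone. In this fit of summed cultures the block is the pool, here and where the stock as a block is named below. It was 471 without pool AB and 788 without pool CD. With libraries scaled by their totals alone, which moves the median change of all entries by -0.61, to -0.54 from 0.07, 161 entries were called higher and 1183 lower. By the same test 592 entries were called in AGY1611, 800 in AGY1612 and 452 in AGY1613.

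The largest rise over both pools was that of XRN1, described above, which did not have 1 sign in all 4 cultures. Among called entries with 1 sign in all cultures and a mean of at least 50 counts at generation 0, the 12 largest rises were mostly those of barcodes that rose mainly in 1 pool. CPR2 had 9370 and 15400 CPM in cultures A and B at generation 10 and 193 and 272 CPM in C and D, against 67.5 to 81.3 CPM at generation 0 (log2 change 6.60 ± 1.46 SE, adjusted p 0.0058). AHA1 had 24400 and 10600 CPM in C and D and 293 and 271 CPM in A and B, against 103 to 117 CPM at generation 0 (log2 6.58 ± 1.39 SE, adjusted p 0.00454, and 0.0526 with the stock as a block). GNP1, RCN2, RPS28B, PAF1, DBF20, CRN1 (coronin, an actin-binding protein), HYP2, RAD6 and CIN2 followed at log2 6.07 to 4.80, with ARF1 between HYP2 and RAD6. Apart from HYP2 and ARF1, their change was 5.51 or more in one pool and 1.57 or less in the other. With the stock as a block, 5 of these 12 rises lost the call (AHA1, GNP1, PAF1, CRN1 and RAD6, adjusted p 0.0526 to 0.0793). With the AGY1614 libraries alone, all 12 did (adjusted p 0.0617 to 0.201).

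A second set of barcodes rose in every culture of both pools. The 21 entries that rose 4-fold or more and were called in each pool, with a mean of at least 50 counts at generation 0, were picked after their values were seen. ARF1 had 5820, 8570, 5790 and 5010 CPM in cultures A to D at generation 10, and 235, 241, 246 and 243 CPM at generation 0. All 4 cultures rose and the generations did not overlap. Its log2 change was 4.83 ± 0.28 (SE, adjusted p 1.65e-06), or 28.5-fold. ARF2 had 8300, 9730, 7130 and 6400 CPM at generation 10, against 657, 678, 652 and 621 CPM at generation 0 (log2 3.67 ± 0.27 SE, adjusted p 7.11e-06). ARF1 and ARF2 are similar in coding sequence, and how reads were matched to their barcodes is not given in the sources used here.

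YHB1 encodes flavohemoglobin, which detoxifies nitric oxide. It had 2500, 3680, 4960 and 3100 CPM in cultures A to D at generation 10, against 231, 212, 235 and 218 CPM at generation 0 (log2 4.15 ± 0.30 SE, adjusted p 7.11e-06). PAB1, the poly(A)-binding protein gene, had 3590, 4370, 5610 and 4350 CPM, against 277, 288, 295 and 275 CPM (log2 4.08 ± 0.31 SE, adjusted p 7.91e-06). In both genes the lowest generation 10 culture was more than 10 times the highest generation 0 culture. GLC7, the catalytic subunit of protein phosphatase 1, had 2710, 2850, 1810 and 1790 CPM at generation 10, against 202 to 215 CPM at generation 0 (log2 3.50 ± 0.44 SE, adjusted p 0.00021). YPT1, a Rab GTPase of transport between the endoplasmic reticulum and the Golgi, had 1900, 2310, 1440 and 1400 CPM, against 175 to 200 CPM (log2 3.28 ± 0.44 SE, adjusted p 0.000292).

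WHI4, an RNA-binding protein gene, had 1920, 3040, 9140 and 5530 CPM in cultures A to D at generation 10, against 376 to 405 CPM at generation 0, and it rose more in CD than in AB (log2 4.23 and 2.63). SBP1, which represses translation and promotes decapping, had 1760, 2350, 3430 and 3340 CPM, against 358 to 399 CPM (log2 2.91 ± 0.30 SE, adjusted p 6.38e-05). STM1, a ribosome-associated protein, had 844, 1100, 895 and 1190 CPM, against 229 to 248 CPM (log2 2.11 ± 0.31 SE, adjusted p 0.000496). The nuclear exoribonuclease gene RAT1 rose by log2 3.80. TIF3, which encodes translation factor eIF4B, was outside the 21 entries because it stayed just under the 4-fold limit in AB (log2 1.99), and rose by 2.64 over both pools.

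The remainder of the 21 were the G1 repressor gene SRL3 (log2 4.13), CDC5 (4.49), the nitrosoguanidine resistance gene SNG1 (4.25), ZDS1 (3.67), the mannosyltransferase gene VAN1 (3.70), SPF1 (an ATPase of the endoplasmic reticulum, 3.15), the AT-tract binding protein gene DAT1 (2.77), the sterol synthesis genes ERG25 (2.74) and ERG10 (2.39), RLP7 of ribosome assembly (2.09) and HYP2. All of these passed the test over both pools, which uses the same libraries as the calls by which they were chosen. Their folds differed between pools in most cases. SRL3, for example, had 4390 and 6810 CPM in A and B but 1420 and 1260 CPM in C and D at generation 10, with 215 to 227 CPM at generation 0. ERG10 was closer, with 762, 1300, 1140 and 1250 CPM at generation 10 and 223 to 234 CPM at generation 0. In the fit of the AGY1614 libraries alone, ARF1 (adjusted p 0.0617), SRL3 (0.0805), SNG1 (0.0855), WHI4 (0.0865), HYP2 (0.101), ZDS1 (0.102), CDC5 (0.107) and ARF2 (0.121) lost the call, and the remaining members of the 21 kept it (0.0214 to 0.0486).

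The barcodes that fell furthest had no or almost no counts left. OSH6, which encodes an oxysterol-binding protein that carries phosphatidylserine, had 0 counts in all 4 cultures at generation 10, against 77, 58, 53 and 58 at generation 0. It was at least 3.29-fold lower against a floor of 3 counts per library (adjusted p 0.00621). PEX13, a peroxisomal import gene, also had 0 counts at generation 10, against 62, 44, 49 and 59 at generation 0, and was at least 2.86-fold lower (adjusted p 0.0444, and 0.0788 with the stock as a block). Low totals at generation 10 limit these bounds.

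IBD2, a spindle checkpoint gene, had 2, 1, 1 and 0 counts in cultures A to D at generation 10, against 181, 202, 198 and 190 at generation 0. After scaling it was 30.9-fold lower (95% exact counting interval 12.1 to 113, adjusted p 0.00124). FPK1, a kinase that activates lipid flippases, kept 3 counts in all at generation 10, against 649 at generation 0, a 34.7-fold lower level (11.9 to 168, adjusted p 0.00169). LPX2 kept 6 counts, against 761, and was 20.3-fold lower (9.34 to 55.4). Among the others named at the lower end, MET5 (sulfite reductase) kept 3 counts, ARO80 (a regulator of aromatic amino acid breakdown) 3 and the chaperonin subunit gene CCT3 3, against 506, 466 and 520 at generation 0. RAD23 (nucleotide excision repair), SKO1 (a transcription factor of the osmotic stress response), NIP100 (dynactin) and RIM9 (pH sensing) kept 1, 1, 2 and 2 counts. These last 4 calls and that of PEX13 were lost with the stock as a block (adjusted p 0.0703 to 0.0947). No molecular identifier is described for the barcode reads, so 1 molecule may be read more than once, and floors and intervals cover counting error only.

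Large falls were also found among barcodes with high starting counts. At least 4-fold lower and called in both pools were 373 entries with a mean of 50 or more counts at generation 0, and 207 of them had 500 or more. The following genes were taken from those 207 after their values were seen. DOM34, which rescues stalled ribosomes, had 127, 44.4, 47.9 and 137 CPM in cultures A to D at generation 10, against 791, 783, 793 and 916 CPM at generation 0 (log2 -3.57 ± 0.31 SE, adjusted p 3.14e-05). TUB2, the single beta-tubulin gene, had 23, 8.99, 16.7 and 15.9 CPM, against 179, 183, 183 and 165 CPM (log2 -3.63 ± 0.49 SE, adjusted p 0.000295). CCW12, a major cell wall mannoprotein, had 32.6, 10, 13.4 and 37 CPM, against 256 to 269 CPM (log2 -3.90 ± 0.34 SE, adjusted p 3.14e-05). In all 3 genes every generation 10 culture was below every generation 0 culture. The generation 10 counts in A to D were 66, 84, 43 and 52 for DOM34, 12, 17, 15 and 6 for TUB2 and 17, 19, 12 and 14 for CCW12. They did not scale with the library totals. The CPM of DOM34 and CCW12 were highest in A and D, the cultures with the lowest totals, and that of TUB2 in A. Whether a floor of reads sets these levels, and so the size of the falls, was not tested.

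The sterol desaturase gene ERG3 fell by 3.68 on the log2 scale, the sulfate assimilation gene MET14 by 3.70, the vacuolar ATPase gene STV1 by 3.76, MLP1 of the nuclear basket by 3.85 and the kinetochore gene NNF1 by 3.81. The kinase gene YAK1 had a log2 change of -3.64, the ribonucleotide reductase gene RNR2 -3.46, the RNA polymerase III factor gene TFC3 -3.52 and the NAD synthesis gene BNA1 -3.35. GSR1 changed by -3.46, IAH1 by -3.51 and RBD2 by -3.56. All of these except CCW12 also had negative changes in each of the other strains. DOM34, for example, had log2 changes of -3.18, -4.75 and -4.37 in AGY1611, AGY1612 and AGY1613, and TUB2 had -3.11, -4.89 and -4.24. The difference of AGY1614 from their mean was 0.53 for DOM34 (adjusted p 0.488) and 0.45 for TUB2 (adjusted p 0.76).

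The difference between the AGY1614 change and the mean change of the other 3 strains was called for 55 of 4667 entries (1.18%), 24 higher (0.514%) and 31 lower (0.664%). An unadjusted p under 0.05 was reached by 744 entries. The lowest adjusted p values were those of ARF1, YHB1 and ARF2. ARF1 had a log2 change of 4.83 in AGY1614, against 0.88, -0.37 and 0.55 in AGY1611, AGY1612 and AGY1613, a difference of 4.47 ± 0.30 (SE, adjusted p 8.86e-06). At generation 10 its level was 5010 to 8570 CPM in the AGY1614 cultures and 172 to 464 CPM in the 12 cultures of the other strains. YHB1 had a change of 4.15 in AGY1614, against 0.44, 0.03 and -0.35 (difference 4.11 ± 0.33 SE, adjusted p 2.84e-05). ARF2 had 3.67, against -0.42, -0.53 and 0.64 (difference 3.78 ± 0.29 SE, adjusted p 2.84e-05).

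WHI4 rose in AGY1614 with a change of 3.80, against 0.41, 0.03 and -0.55 in the other strains (difference 3.84, adjusted p 0.00136). PAB1 had 4.08, against 0.85, 1.57 and 1.22 (difference 2.87, adjusted p 0.000828). HYP2 had 4.85, against 1.04, 0.37 and 1.60 (difference 3.85, adjusted p 0.0145). SRL3, SNG1, CDC5, ZDS1, YPT1, DAT1, STM1, RLP7, ERG10 and SBP1 also differed, by 3.82, 3.78, 3.47, 3.34, 3.08, 2.60, 2.37, 2.10, 1.78 and 1.70. GLC7 rose in AGY1614 by 3.50, against 2.31, 1.44 and 1.80 in the other strains, and its difference of 1.65 was not called (adjusted p 0.0939). Nor were those of RAT1 (difference 3.60, adjusted p 0.0817), SPF1 (3.20, 0.095), ERG25 (1.97, 0.104) and VAN1 (2.39, 0.13). HYP2, ZDS1, WHI4, ARF2, CDC5 and ARF1 are among the 32 barcodes chosen by their shares in AGY1614, and all the rising genes described above were chosen on their AGY1614 levels, so these differences are not independent of that choice. CPR2 (difference 6.43, adjusted p 0.0636) and AHA1 (5.81, adjusted p 0.0678) had larger but less precise differences.

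On the lower side, SOK1, a gene of the protein kinase A pathway, had 72.9, 67.1, 55.8 and 97.8 CPM in the AGY1614 cultures at generation 10, against 322, 331, 302 and 330 CPM at generation 0. Its log2 change was -2.21 in AGY1614, against 1.04, 0.15 and 0.84 in the other strains (difference -2.89 ± 0.32 SE, adjusted p 0.000828). SFP1, a regulator of ribosomal protein gene transcription, had 217, 118, 103 and 161 CPM at generation 10, against 508 to 640 CPM at generation 0. Its change was -2.05, against 0.44, -0.14 and 0.68 (difference -2.37 ± 0.32 SE, adjusted p 0.00336). At generation 10, SOK1 and SFP1 were lower in all 4 AGY1614 cultures than in any of the 12 cultures of the other strains.

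NDC1, which anchors nuclear pores and spindle pole bodies in the nuclear envelope, had 17.3, 1.59, 1.12 and 5.29 CPM in AGY1614 at generation 10, against 54.4 to 60.7 CPM at generation 0. Its change was -3.86, against 0.50, -0.09 and 0.85 (difference -4.28, adjusted p 0.00652). SUR1, of sphingolipid mannosylation, changed by -1.80, against 0.65, -0.73 and 0.93 (difference -2.09, adjusted p 0.00789). YAR035C-A changed by -2.89, against -0.89, -0.84 and -0.95 (difference -1.99, adjusted p 0.0171), and BNA1 by -3.35, against -1.33, -2.58 and -0.79 (difference -1.79, adjusted p 0.033). CCW12 changed by -3.90 in AGY1614, against 0.11 in AGY1611, -0.58 in AGY1612 and -4.08 in AGY1613 (difference from their mean -2.38, adjusted p 0.00666). With the stock as a block 17 differences were called. NDC1 (adjusted p 0.0891), CCW12 (0.0594), SUR1 (0.0869), YAR035C-A (0.132) and SNG1 (0.0891) were not among them, while ARF1 (0.000674), YHB1 (0.000675), SOK1 (0.00688), WHI4 (0.00688), SFP1 (0.0231), SRL3 (0.0231) and HYP2 (0.0487) were. Without culture B the NDC1 difference was not called (adjusted p 0.0895), nor was that of CCW12 without culture C (0.0631). Without pool AB the differences of CCW12 (adjusted p 0.0862), SUR1 (0.062), YAR035C-A (0.124) and SNG1 (0.102) were not called.

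**Figure D4:**
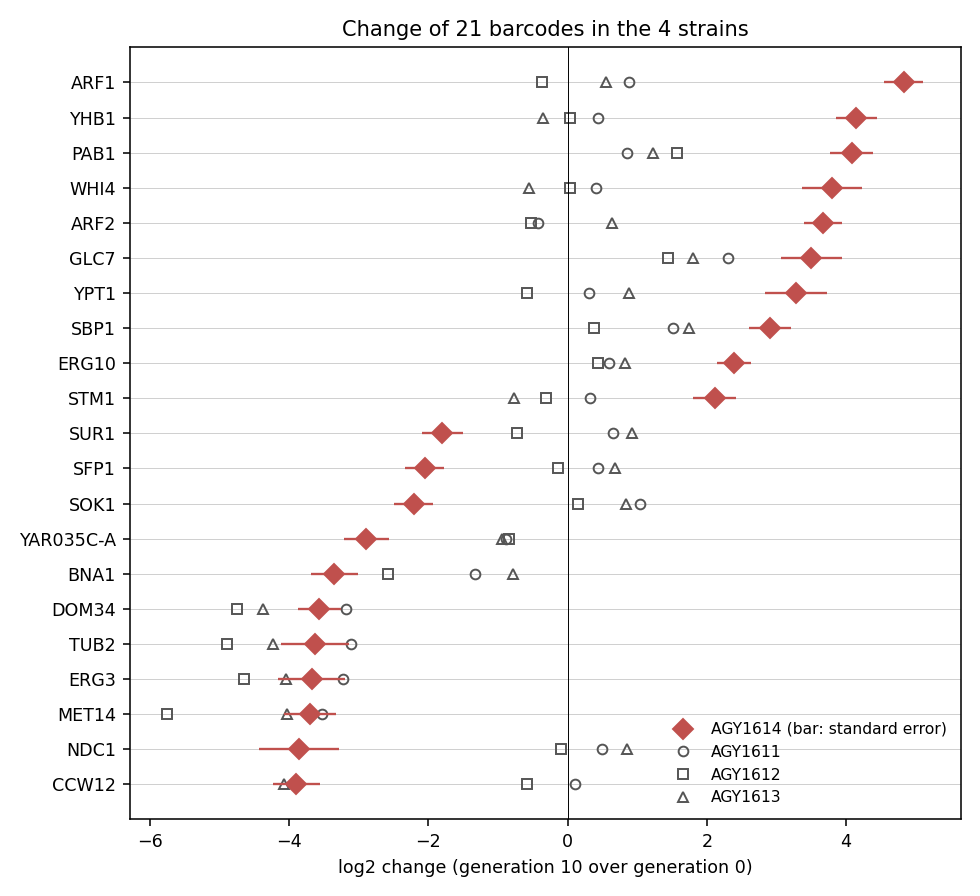
Log2 change (generation 10 over generation 0, horizontal axis) of 21 barcodes in AGY1614 (filled, bar: standard error) and in the other 3 strains (open symbols). ARF1, YHB1, WHI4 and ARF2 rise in AGY1614 and lie between -0.55 and 0.88 elsewhere, SOK1 and SFP1 fall in AGY1614 and lie between -0.14 and 1.04 elsewhere, and DOM34 and TUB2 are negative in all 4 strains.

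The 40 gene lists, drawn up by textbook function, had median log2 changes from -1.51 to 0.83, beside 0.07 for all entries tested. They are described by counts and medians without a test of their own, and each count is to be read beside the 15.9% of all 4667 entries that were called lower and the 10.7% called higher. With libraries scaled by total alone the medians of all lists shift down, and the number of lists with a negative median goes to 38 in place of 18.

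Histones had the lowest median in the combined fit: 8 of 13 entries fell (61.5%, against 15.9% of all entries) and 1 rose (7.69%, against 10.7%). The median was -1.51 in the combined fit, -1.63 in pool AB and -1.26 in pool CD. HHF2, a histone H4 gene, had 80.6, 34.9, 23.4 and 44.9 CPM in cultures A to D at generation 10, against 244, 294, 254 and 240 CPM at generation 0 (log2 -2.75, adjusted p 0.000237). HTA2, a histone H2A gene, had 80.6, 51.8, 56.9 and 76.7 CPM, against 341, 336, 355 and 418 CPM (log2 -2.57, adjusted p 0.000206). HHT2 (histone H3) and HTB1_2, the second entry of a histone H2B gene, fell by 3.35 and 2.61 on the log2 scale, but HTB1 was not called when its entries were summed (adjusted p 0.547). By edgeR 0 of the 13 histone entries differed from the other strains, 5 had an unadjusted p under 0.05, and DESeq2 called 1. Over all 4667 entries edgeR called 55 differences (1.18%), 744 entries had an unadjusted p under 0.05, and DESeq2 called 338. With so low a share called over all entries, 0 of 13 is no result about histones.

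Cyclins and Cdc28 had 7 of 20 entries lower and 0 higher by edgeR (median -0.44), with 1 higher at an unadjusted p under 0.05 and 1 higher by DESeq2. PCL1, a G1 cyclin of the kinase Pho85, had 48, 39.7, 45.7 and 52.9 CPM at generation 10, against 355, 359, 358 and 344 CPM at generation 0 (log2 -2.97, adjusted p 3.94e-05). It changed by -1.32, -2.88 and -0.54 in AGY1611, AGY1612 and AGY1613, and the AGY1614 difference of -1.39 was called (adjusted p 0.0409). CLB3 and CLB1, B-type cyclins, fell by 2.29 and 2.20. SWI4, the G1 transcription factor grouped with them, fell by 3.47 (adjusted p 0.0338, and 0.053 with the stock as a block).

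Of the small ribosomal subunit entries, 15 of 53 were lower (28.3%) and 5 higher (9.43%), with a median of -0.31. Of the large subunit entries, 16 of 74 were lower (21.6%) and 4 higher (5.41%), with a median of -0.32. The shares over all entries were 15.9% lower and 10.7% higher. RPS15 and RPS22A changed by -3.95 and -3.91, RPL7B by -4.27, RPL29 by -2.94, RPL20B by -2.93 and RPL33A by -2.92, all passing the test. RPL29, for example, had 38.4, 31.2, 31.2 and 84.6 CPM at generation 10, against 301 to 321 CPM at generation 0. RPS28B was the exception among the large changes, as 1 of the most abundant barcodes of pool CD. Mitochondrial ribosomal proteins had 9 of 66 entries lower and 6 higher, with a median of 0.26 (-0.33 with scaling by totals). MRPL44 and MRPL16 fell by 2.89 and 2.88 and MRPS28 by 2.06, and RSM19 rose by 1.90.

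Among translation factors, initiation factors had 5 of 24 lower and 4 higher (median -0.46). TIF35, an eIF3 subunit gene, fell by 4.01, while PAB1, TIF4632 (eIF4G2) and TIF3 rose by 4.08, 3.50 and 2.64. TIF4632 rose in pool AB (log2 4.23) with 0.37 in CD, and was not called with the stock as a block (adjusted p 0.0574). TIF3 differed from the other strains (difference 2.56, adjusted p 0.0424). Elongation and termination factors had 2 of 12 lower (EFT2 and CAM1) and 2 higher (HYP2 and SUP45). SUP45 was not called with the stock as a block (adjusted p 0.082), with scaling by totals (0.412) or without culture C (0.0947). Cytosolic tRNA synthetases had 0 of 15 lower and 3 higher by edgeR (median 0.44, and -0.16 with scaling by totals), with 2 lower at an unadjusted p under 0.05 and 2 lower by DESeq2. CDC60 rose by 3.26, nearly all in pool CD (adjusted p 0.0829 with the stock as a block), FRS2 by 1.16 and GRS1 by 0.64. mRNA decay factors had 6 of 32 lower and 5 higher (median 0.46), with XRN1, LSM5 and SBP1 higher and PAT1 lower (log2 -2.93, adjusted p 0.0479, and 0.0947 with the stock as a block). Of the 5 Pumilio-family entries, 0 were called by edgeR and 0 by DESeq2, and 1 had an unadjusted p under 0.05 (median -0.23).

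Proteasome subunits had 0 of 29 entries lower and 7 higher by edgeR (median 0.39), with 1 lower at an unadjusted p under 0.05 and 1 lower by DESeq2. RPT3, RPT2, RPT5 and RPT6, ATPases of the regulatory particle, rose by 2.33, 2.06, 1.21 and 1.21. RPT3 and RPT2 did so in pool AB (log2 3.01 and 2.68) with 0.38 and -0.09 in CD, and RPT6 was alike in both (1.12 and 1.14). With scaling by totals the list's median was -0.22, and RPT2, RPT5 and RPT6 were not called (adjusted p 0.0964 to 0.258). With the stock as a block RPT3 (adjusted p 0.0503), RPT2 (0.116) and RPT6 (0.0649) were not called. The chaperonin had 1 of 6 lower (CCT3), prefoldin had 1 of 6 higher (YKE2, log2 1.65), and cytosolic chaperones had 3 of 24 lower and 3 higher. Of those, the Hsp40 gene YDJ1 fell by 2.79 (adjusted p 6.38e-05), SSA3 fell by 3.32, CDC37 fell by 1.32, and AHA1 rose in pool CD.

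Histidine synthesis genes with GCN4 had 0 of 8 lower by edgeR, by DESeq2 or at an unadjusted p under 0.05, and 2 higher (median 0.77, and 0.18 with scaling by totals). HIS3 had 1480, 1870, 578 and 362 CPM at generation 10, against 254, 239, 210 and 203 CPM at generation 0 (log2 2.37, adjusted p 0.00487), and every culture rose. HIS4 rose by 1.06 (adjusted p 0.0173, and 0.0565 with the stock as a block). In the other strains HIS3 had changes of 1.83, 0.83 and 1.12, and the difference of 1.11 was not called (adjusted p 0.362). Sulfate assimilation and methionine genes had 6 of 27 lower and 4 higher (median 0.08), with MET5, MET14, HOM3 and SAM3 falling (HOM3 not called without culture C, adjusted p 0.0645). Amino acid permeases had 4 of 17 lower, among them TAT2 (-3.24), and 3 higher, among them GNP1 and DIP5 (2.03).

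Lists of membranes and lipids went both ways. Sphingolipid synthesis had 1 of 24 lower (SUR1) and 4 higher (median 0.50, and -0.11 with scaling by totals). CSH1, LCB1 and ORM2 rose by 1.64, 1.35 and 0.96. LCB1 and ORM2 were not called with scaling by totals (adjusted p 0.121 and 0.434), and ORM2 was not called with the stock as a block (0.0792). Ergosterol synthesis and oxysterol-binding proteins had 7 of 26 lower and 2 higher (median 0.18): OSH6 and ERG3 fell, and ERG25 and ERG10 rose. Lipid flippases and their kinases had 2 of 7 lower (FPK1 and NEO1, log2 -2.17) and 1 higher (CDC50, 1.93, with adjusted p 0.104 under scaling by totals and 0.0557 without culture B). Hal5-type kinases and ion transport had 5 of 14 lower and 1 higher (median -1.29). RTK1, a kinase of that family, had 136, 95.2, 125 and 182 CPM at generation 10, against 520, 543, 524 and 505 CPM at generation 0 (log2 -2.07, adjusted p 6.38e-05). The proton pump gene PMA1 fell by 2.31, more in AB (-3.64) than in CD (-1.64), and PMP3 and PTK1_2 by 3.99 and 3.41, the last pair not with the stock as a block (adjusted p 0.102 and 0.095).

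Signalling lists were small and mixed. Cell wall integrity and HOG kinases had 4 of 21 lower and 2 higher (median -0.87). PKC1 and SSK1 fell by 3.21 and 1.97, and YPD1 and SLT2 rose by 1.67 and 1.23. PKC1 was not called with the stock as a block (adjusted p 0.0763), nor SLT2 with scaling by totals (0.0617). Ras and protein kinase A genes had 2 of 12 lower and 2 higher with the highest median of all lists in the combined fit (0.83). Their medians were 0.32 in pool AB and 0.49 in pool CD, under those of the histidine list (0.77 and 0.55). YAK1 and the phosphodiesterase gene PDE1 fell by 3.64 and 1.98. BCY1, the inhibitory subunit of protein kinase A, rose by 1.58, differing from the other strains (difference 1.67, adjusted p 0.0413), and the catalytic subunit gene TPK2 rose by 1.06 (adjusted p 0.276 with scaling by totals). TOR complex 1 pathway genes had 3 of 20 lower and 3 higher, with SFP1, RRD2 and SEA4 falling and TAP42 rising. Glc7 phosphatase and its regulators had 1 of 17 lower (GIP1, -3.34) and 1 higher (GLC7).

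In the cell wall lists, mannoproteins and remodelling enzymes had 4 of 25 lower and 2 higher, CCW12 and NCA3 among the lower, SCW4 and CTS1 the higher, both of these mainly in AB. SCW4 was not called with the stock as a block (adjusted p 0.0963), nor CTS1 with scaling by totals (0.0777). Glucan and chitin synthases had 3 of 20 lower and 3 higher: the glucan synthase gene GSC2 fell by 4.06, KRE9 fell by 3.27 and SKT5 rose by 1.60. FKS1, the main glucan synthase gene, had 17.3, 25.4, 7.81 and 10.6 CPM at generation 10, against 2.84, 1.25, 0.552 and 0.316 CPM at generation 0. It started from very few counts, and its rise (log2 3.73, adjusted p 0.0238) was not called with the stock as a block (0.11) or without culture B (0.0691).

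For the cytoskeleton and nucleus, tubulin, actin and actin-binding proteins had 2 of 19 lower (TUB2 and TUB3) and 2 higher (CRN1 and ARC35). Spindle pole body entries had 4 of 18 lower and 4 higher, with NDC1, SPC72 (-2.59) and CNM67 (-2.49) falling and MPS2 rising by 4.47 in AB with 0.24 in CD. MPS2 was not called with the stock as a block (adjusted p 0.0775), nor SPC72 without culture C (0.098). Nuclear pore and import entries had 6 of 38 lower and 5 higher, with NUP120 and NUP60 falling by 3.81 and 3.35 and RNA1 by 2.70. Spliceosome and Lsm proteins had 9 of 52 lower and 11 higher, among them ISY1 and SNU56 higher, mainly in AB, and the helicase gene PRP43 lower (-3.45). RNA polymerase subunits had 1 of 27 lower and 5 higher, among them RPB7 (2.18), RPC34 (1.86), RPC19 (1.53) and RPO31 (1.52).

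For traffic and organelles, vacuolar protein sorting entries had 10 of 41 lower and 4 higher (median -0.47), with VPS1, VPS9, VPS73 and DID4_2 lower by 3.02, 2.51, 2.45 and 2.47 on the log2 scale. VPS1 was not called with the stock as a block (adjusted p 0.0696) or without culture B (0.103). Secretory pathway entries had 5 of 35 lower and 4 higher, with SAR1 (-3.54) and SEC15 (-4.02, adjusted p 0.054 with the stock as a block) among the lower and ARF1 and ARF2 among the higher. Peroxins had 6 of 27 lower and 1 higher, PEX13, PEX10, PEX5 and PEX9 among the lower. Autophagy entries had 4 of 31 lower (ATG36, ATG14, ATG16 and ATG38_2) and 2 higher. Respiratory chain and ATP synthase entries had 4 of 37 lower, among them COX12 (-3.03), SDH1 (-2.14) and CYT1, which had 0 counts at generation 10, and 7 higher, among them COX5B (3.29, mainly CD). Glycolysis and fermentation had 2 of 21 lower and 4 higher: ADH5, TDH2 and PGK1 rose by 2.03, 1.47 and 1.29, and ADH5 differed from the other strains (difference 1.85, adjusted p 0.0389). Glucose transporters and sensing had 2 of 13 lower, SNF3 (-2.04) and GAL83 from very few counts, and 1 higher, RGT2 (1.48). Ubiquitin-specific proteases had 1 of 14 lower (UBP6, -1.83) and 1 higher (UBP13, 0.89).

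**Figure D5:**
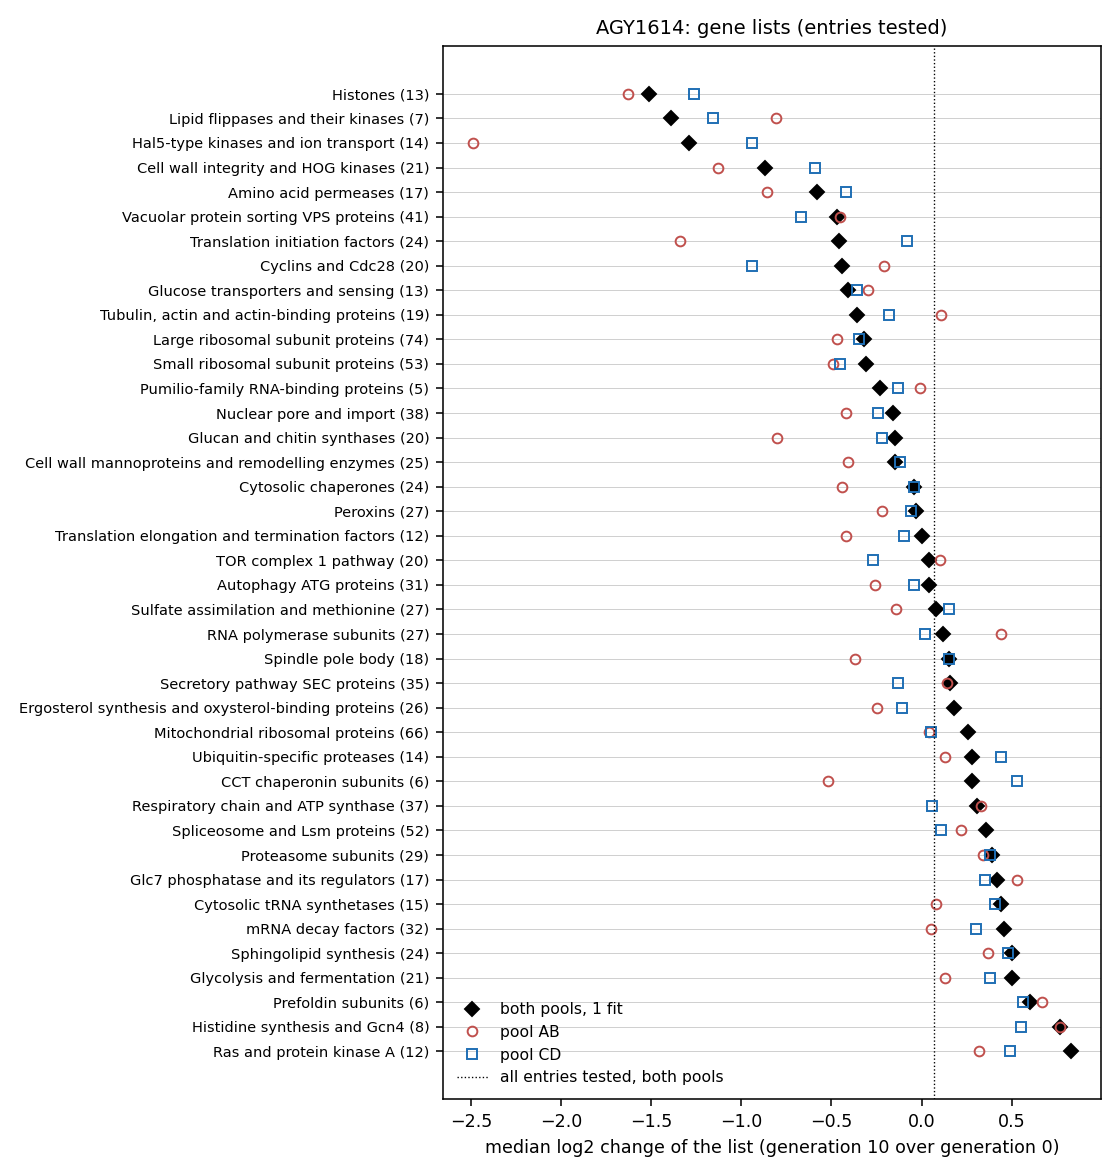
Median log2 change (generation 10 over generation 0) of the 40 gene lists in AGY1614, over both pools in 1 fit (filled) and in each pool (open), with the number of entries tested and a dotted line at 0.07, the median of all entries. Over both pools in 1 fit, histones lie lowest at -1.51 and Ras and protein kinase A genes highest at 0.83. The pools differ in median by more than 1 for Hal5-type kinases and ion transport (-2.49 in AB and -0.94 in CD), translation initiation factors (-1.34 and -0.08) and the chaperonin (-0.52 and 0.53).

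By chromosome of the plasmid gene, median log2 changes ran from -0.19 (X) to 0.21 (I). The medians for chromosomes IV, VII, XII and XV, those amplified in some strains of the series, were 0.18, 0.17, -0.11 and 0.08. By gene length, the 230 entries over 3000 base pairs had a median of -0.77, against 0.06 to 0.15 in the shorter classes. The same entries had a median of -0.62 in the other strains, and a median starting count of 370 per library, against 769 to 1360 in the shorter classes. Over 4424 entries Spearman's rho between length and change was -0.0406, and that between starting count and change 0.16. These are descriptions across genes, which are not independent replicates.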

How the data were processed

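The table used was deposited by the authors and gives barcode counts per gene for batch 1 as whole numbers without normalization. How reads were matched to barcodes is not given in the sources used here. Per the labels' protocols, barcodes were amplified with 20 PCR cycles. The table holds 4872 names, of which 4865 matched the gene table of assembly R64, and 62 had no count in batch 1. For 54 genes there are 2 entries, and a name ending in _2 is the second. The columns were matched to samples by name.

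Counts were summed within each pool (A with B, C with D), giving 16 libraries for the 4 strains, and fitted with edgeR 4.0.16 (R 4.3.3). The fit used TMM scaling, filterByExpr (minimum count 10), a coefficient for each combination of strain and generation, 8 residual degrees of freedom and quasi-likelihood F tests with Benjamini-Hochberg adjustment over all entries tested. An entry is called at an adjusted p under 0.05. The empty plasmid was kept in the shares of counts and left out of the fits. The p-values measure the spread between 2 transformation pools, shared over the strains. The pool difference was fitted on all 32 libraries with the cultures as repeats, and its p-values measure the spread between cultures of 1 pool. CPM are counts per 1000000 counts of the library after TMM scaling. On simulated counts the 2-pool test recovered 74.5% of changes of log2 size 1 and 98% of size 2 over 4614 genes, and the pool test 9.8% and 72.4% over 4624 genes. The simulated cultures were drawn independently with 1 spread for all genes, and the pools differed only by changes put in. The real pools differed more widely, so these rates hold for that setting and do not describe the tests on these data.

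Named genes were the 12 largest called changes each way with a mean of at least 50 counts at generation 0 and 1 sign in all 4 cultures, every barcode with at least 0.5% of counts in a generation 10 culture, the 6 largest called differences each way between strains and between pools, and up to 4 called members of each list. Members and lists were chosen with earlier results of these data known. The generation 0 library is the rest of the stock that started the same culture, per the labels, so libraries of a stock are paired. Deviations of same-letter libraries from their group means correlated at 0.0677, -0.0404, -0.0216 and 0.0241 over 4430 entries. The alternatives were the stock as a block (the replicate letter, or the pool where cultures were summed), DESeq2 1.42.0 and its size factors, scaling by library totals, other filters, AGY1614 alone, cultures kept apart, summed entries, and leaving out cultures or pools. Results for some entries are not reported here.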

Additional observations from a re-analysis of the deposited data

Results flagged for a closer look

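The change of 1 culture stood apart from the other 3 in 6 of 158 named entries tested. For independent cultures chance flags about 1 in 20. Cultures of a pool were alike and the entries were chosen by their values, so that rate is no measure of chance here. RAD23 had -1.97 in culture D, against -4.32 to -3.95 in the others, and NNF1 had -2.89 in D, against -3.94 to -3.84. RPL29 had -1.82 in D, against -3.25 to -3.03. TIF35 had -5.39 in culture A, against -3.48 to -3.22, and SWI4 had -4.46 in A, against -3.27 to -3.05. CCR4_2 had -0.15 in culture B, against -3.59 to -3.38. Values are log2 ratios of CPM plus 1. RAD23 kept 1 count in all at generation 10, so its value in culture D rests on at most 1 read. Culture D had the fewest counts at generation 10, and the part of depth in the values of the other entries was not tested.

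The change in AGY1614 differed from the mean of the other 3 strains, by the test of that difference, in 28 named entries. The fitted value for FKS1 (6.77) depends on the prior count and is no measured fold, since FKS1 had 0 counts in 9 of the 12 generation 10 cultures of the other strains. The other higher ones were ARF1 (4.47), YHB1 (4.11), HYP2 (3.85), WHI4 (3.84), SRL3 (3.82), ARF2 (3.78), SNG1 (3.78), CDC5 (3.47), ZDS1 (3.34), YPT1 (3.08), PAB1 (2.87), DAT1 (2.6), TIF3 (2.56), STM1 (2.37), RLP7 (2.1), ADH5 (1.85), ERG10 (1.78), SBP1 (1.7) and BCY1 (1.67). The lower ones were NDC1 (-4.28), SOK1 (-2.89), CCW12 (-2.38), SFP1 (-2.37), SUR1 (-2.09), YAR035C-A (-1.99), BNA1 (-1.79) and PCL1 (-1.39). All are log2 differences with adjusted p under 0.05 by edgeR's quasi-likelihood test.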

How the results depend on the processing

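The count of entries changed between generations was 1242. It was 822 with the replicate block, 745 with AGY1614 alone, 2449 with the 4 cultures kept apart, 471 without pool AB, 788 without pool CD and 2240 when called the same way in each pool on its own. Without 1 culture it was 1025 to 1304, and under the other alternatives 1199 to 1599. The alternative of calling each pool on its own and that of leaving out the 32 most abundant barcodes (1202) were chosen after seeing the data. Scaling by totals gave 1344 calls, of which 905 were shared with the fit reported.

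The count of entries that differed from the other strains was 55. It was 230 with scaling by totals, 338 with DESeq2, 17 with the replicate block, 1101 with cultures kept apart, 173 without pool CD, 56 without pool AB and 39 to 86 without 1 culture. The pool difference was called for 2481 entries, and for 1838 to 2551 under its alternatives, including 2220 with the replicate block and 1838 to 2346 without 1 culture. The share of the 10 most abundant barcodes was 9.55%, and 8.55% to 10.2% without 1 culture. Scaling by totals gave 38 lists with a negative median in place of 18.

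Without pool AB, ECM19 (-0.03) and RPT2 (-0.05) changed sign. Without pool CD they were 3.71 and 2.78. Of the 32 most abundant barcodes, 15 lost the call with the replicate block (adjusted p 0.0512 to 0.125), 16 without pool AB, 10 without pool CD and 32 with AGY1614 alone. Of the 12 largest falls, 5 lost it with the replicate block, 9 without pool AB, 5 without pool CD and 3 with AGY1614 alone. The cause was not tested. Generation 10 libraries held fewer counts than generation 0 libraries, which limits how far a fall can be measured.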
